A study of Rattus norvegicus with 12 samples.

Results

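The genes described here are 42 genes of fatty acid oxidation, ketone body metabolism and the peroxisome, taken by gene symbol from a whole-genome expression array of FaO cells, a line of rat hepatoma cells that keeps many functions of the hepatocyte. They comprise 18 mitochondrial enzymes, 8 peroxisomal enzymes, 3 enzymes known in both organelles, 5 genes of peroxisome assembly, 4 acyl-CoA synthetases with 1 cytosolic thioesterase, and 3 genes given as a regulator, a carrier and a kinase. A named probe was found for 41 of the 42 genes, of 14940 genes named on the 22523 probes of the array, and none for Ehhadh, the bifunctional enzyme of peroxisomal β-oxidation. Of these 41 genes, 37 had a probe that reached a signal of 150 on at least 3 arrays and were tested together with all 9193 such probes. The other 4, Acot1, Ppara, Pdk4 and Pex11a, stayed near background and were measured but not tested.

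The study asked which genes change when FaO cells are exposed to α-lipoic acid (α-LA), a dithiol cofactor of mitochondrial dehydrogenase complexes, and used thapsigargin (TG), an inhibitor of the calcium pump of the endoplasmic reticulum (ER), as a known inducer of ER stress. All cells were kept in medium with 2% fetal calf serum, and each of the 12 arrays carried RNA pooled from 3 culture wells. The α-LA cells received 500 µM α-LA every day and were harvested at 6, 18, 24, 30, 42, 48 and 72 h, with 1 array a time. The TG cells received a single dose of 0.1 µM and gave 2 arrays, which the titles put at 18 and 24 h and the protocol at 6 and 18 h, so that the hours in the titles are used here as names and TG times were not compared. Control cells were untreated and gave 3 arrays, whose harvest time is not stated. Nothing says that arrays of a group came from separate cultures, so that p-values measure the spread between these arrays, which among the controls may be technical. The arrays at 18, 24 and 30 h formed the early α-LA group and those at 42, 48 and 72 h the late α-LA group. Within both α-LA groups, and within TG, arrays of different hours served as replicates. The spread behind the p-values therefore includes change over time. The study took these groups from a clustering of the same arrays, and differences between them are to that extent a consequence of the grouping.

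In mitochondrial β-oxidation, long-chain acyl groups enter on carnitine and are shortened in a cycle of dehydrogenation, hydration, a further dehydrogenation and thiolytic cleavage. Peroxisomes shorten very long chains and start the breakdown of branched chains by α-oxidation, and catalase breaks down the hydrogen peroxide that their oxidases make. In hepatocytes many of these genes are targets of PPARα, a nuclear receptor for fatty acids that binds, with its partner RXR, a direct repeat of AGGTCA half-sites spaced by 1 base (DR1). The liver turns the acetyl-CoA that results into ketone bodies.

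To show what the promoters of these genes hold, the 300 bases from 250 before to 50 after the annotated start were read from RefSeq (assembly GRCr8), which gave an entry for 39 of the 42 genes and none for Acadl, Decr1 and Acaa2. A match to the DR1 letters AGGTCANAGGTCA, searched on both strands with at most 2 mismatches, was present in 7 of these 39 promoters (17.9%), namely those of Acadvl, Fabp1, Amacr, Cat, Crat, Echs1 and Etfa, and in 1263 of all 33469 promoters (3.77%). With at most 1 mismatch the counts were 2 of 39 (5.13%) and 147 of all promoters (0.439%), and no promoter of these genes held an exact match, against 18 of all promoters. The motif and the number of mismatches were chosen after the data had been seen, the match is a description of letters and not of binding, and its absence from this window says nothing about the receptor. The pair with 1 mismatch and a pair of the others are printed 5′ to 3′ on the strand of the gene, with the match in capitals. They are shown because their genes did not all change alike. Acadvl, Fabp1 and Amacr fell with both agents, and Cat rose late after α-LA. In Fabp1 the match lies on the opposite strand, so that the capitals read as its reverse complement. The matches begin at base -77 from the start in Fabp1, -17 in Acadvl, -208 in Amacr and -169 in Cat.
Fabp1, chr4:104749090-104749389, plus strand: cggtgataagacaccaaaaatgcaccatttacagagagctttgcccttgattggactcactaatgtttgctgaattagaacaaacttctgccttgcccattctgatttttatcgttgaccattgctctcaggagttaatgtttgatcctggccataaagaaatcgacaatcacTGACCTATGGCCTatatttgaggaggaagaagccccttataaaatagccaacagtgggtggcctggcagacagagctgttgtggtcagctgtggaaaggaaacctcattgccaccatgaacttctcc
Acadvl, chr10:55236656-55236955, minus strand: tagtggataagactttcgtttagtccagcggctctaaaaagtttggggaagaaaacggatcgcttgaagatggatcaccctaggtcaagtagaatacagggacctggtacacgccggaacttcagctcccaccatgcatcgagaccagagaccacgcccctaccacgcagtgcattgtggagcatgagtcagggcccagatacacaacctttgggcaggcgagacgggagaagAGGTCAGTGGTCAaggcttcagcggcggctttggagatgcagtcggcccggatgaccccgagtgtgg
Amacr, chr2:61673085-61673384, plus strand: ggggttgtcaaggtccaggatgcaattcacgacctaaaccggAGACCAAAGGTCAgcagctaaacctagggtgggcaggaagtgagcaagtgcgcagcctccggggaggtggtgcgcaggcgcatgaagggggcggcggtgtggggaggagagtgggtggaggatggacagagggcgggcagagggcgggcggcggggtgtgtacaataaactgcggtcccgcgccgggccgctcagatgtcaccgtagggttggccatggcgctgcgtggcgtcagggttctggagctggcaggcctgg
Cat, chr3:110329477-110329776, minus strand: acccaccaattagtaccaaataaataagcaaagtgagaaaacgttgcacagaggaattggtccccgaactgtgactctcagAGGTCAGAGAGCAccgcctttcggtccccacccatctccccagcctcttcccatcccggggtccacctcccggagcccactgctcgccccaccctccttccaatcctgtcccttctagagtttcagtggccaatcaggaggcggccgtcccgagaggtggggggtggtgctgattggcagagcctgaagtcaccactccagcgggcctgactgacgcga

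Across all 12 arrays the deposited signals ran from 88.3 to 55970.75, array medians lay between 132.67 and 132.75, and 8409 to 8422 probes an array reached 150. Control 1 stood apart from the other controls. The SD of its log2 differences was 0.256 from control 2 and 0.229 from control 3, against 0.142 between controls 2 and 3 and 0.148 between the TG arrays. The hepatocyte character of the RNA moved with the treatments. The summed signal of 8 of 9 hepatocyte markers with a probe was 60659.9 to 79346.9 in early and 53462.8 to 75733.0 in late α-LA cells, 41511.3 to 41678.3 in TG cells, and 91527.3 to 111688.5 in control cells, and 5 of the 6 markers tested (Alb, Ttr, Serpina1, Tf and Fgb) were lower in all 3 treated groups, while Ahsg was not called. The defining markers Hnf4a and Apoa2 were under 150 on every array and were not tested. The summed signals of the stellate cell, macrophage, endothelial and cholangiocyte markers with a probe were within 217.4 to 603.8 on every array, near background, but 1 of the 4 cholangiocyte markers, Sox9, was called lower in early (-0.38), late (-0.30) and TG cells (-0.44). Ddit3 and Hspa5, which report ER stress, rose by 4.52 and 1.58 on the log2 scale in TG cells. They rose with α-LA as well. The smaller and larger of their changes were 0.51 and 2.90 early, with 1 called higher, and 1.17 and 3.19 late, with both called higher. The part of the hepatocyte markers and of Sox9 in the changes below was not tested. In bulk RNA, fewer cells that express a gene and less of its RNA per cell cannot be told apart.

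In early α-LA cells, 14 of the 37 genes fell and 4 rose against control cells (limma, Benjamini-Hochberg adjusted p under 0.05), where 15.7% of all probes fell and 16.6% rose. In late α-LA cells, 10 fell and 8 rose, beside 17.7% and 19.1% of all probes. TG lowered 17 of the genes and raised 2, beside 18.7% and 19.2% of all probes. The median log2 change over the 37 genes was -0.18 in early α-LA cells, -0.01 in late α-LA cells and -0.34 in TG cells, against medians over all probes of 0.013, 0.017 and 0.0096. Between the late and early α-LA groups, 6 genes were higher late and 0 lower, where 6.43% of all probes were higher and 7.23% lower. At 6 h no gene of the 37 differed by 1.5-fold or more from the control mean, where 0.957% of all probes passed that size upwards and 0.533% downwards. The heat map of all tested genes shows that the groups of genes were not uniform, since strongly raised and strongly lowered genes stood side by side among the mitochondrial enzymes and the acyl-CoA synthetases.

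**Figure D1:**
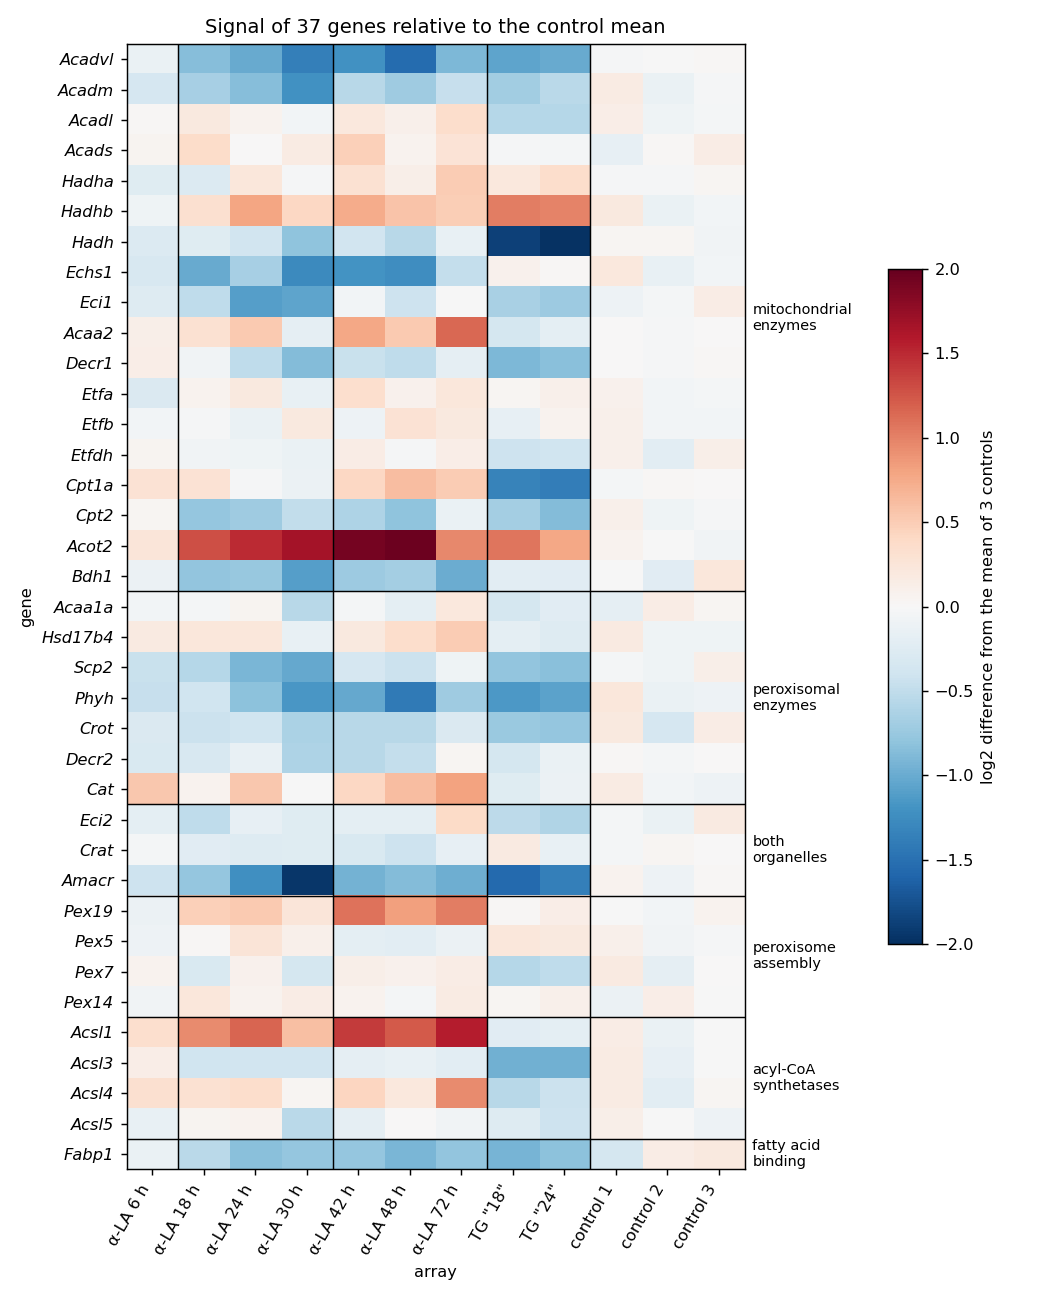
Log2 difference of each array's signal from the mean of the 3 control arrays (colour scale, from -2 to 2) for the 37 tested genes (down) on the 12 arrays (across: α-LA 6 to 72 h, TG, control), with genes grouped by role. Acsl1 and Acot2 are red on the α-LA arrays from 18 h on, Acadvl and Amacr are blue on α-LA and TG arrays, and Cpt1a and Hadh are dark blue on the TG arrays.

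At the entry of fatty acids into mitochondria, Cpt1a moved in opposite directions with the agents and Cpt2 fell with both. Cpt1a, the carnitine palmitoyltransferase of the outer membrane and a main control point of the pathway, had signals of 1207 at 6 h, 1199.6, 969.5 and 903 at 18, 24 and 30 h, and 1312, 1508 and 1399 at 42, 48 and 72 h of α-LA, 391 and 376 on the TG arrays, and 959.8, 1001 and 993 on the control arrays. All late α-LA arrays lay above the controls, the early arrays overlapped them, and both TG arrays lay far below. The late rise was 1.43-fold (log2 change 0.51 ± 0.11, SE, limma adjusted p = 0.00395), and late cells were 1.38-fold above early cells (0.47 ± 0.11, adjusted p = 0.0195). In TG cells Cpt1a fell 2.57-fold (-1.36 ± 0.12, adjusted p = 2.55e-06). The late rise missed the threshold when all α-LA arrays from 18 to 72 h were taken as 1 group (adjusted p = 0.207), and the late-to-early difference did so without the 24 h, the 30 h or the 48 h array, or in some other settings (adjusted p = 0.0507 to 0.0741). Cpt2, which returns the acyl group to CoA at the inner membrane, gave 1713 at 6 h, 975, 1019 and 1193 in early and 1094, 954 and 1526 in late α-LA cells, 1049 and 914 in TG cells, and 1794, 1578 and 1648 in control cells. Every array from 18 h on and both TG arrays were below the controls, the 72 h array least so. Cpt2 fell in early α-LA cells (-0.66 ± 0.16, adjusted p = 0.00694), late α-LA cells (-0.52 ± 0.16, adjusted p = 0.0211) and TG cells (-0.77 ± 0.17, adjusted p = 0.00259). The late fall was lost without control 1, control 3, the 42 h or the 48 h array, or with background removed (adjusted p = 0.0513 to 0.0931).

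The acyl-CoA dehydrogenases, which start each turn of the cycle and differ in the chain length they prefer, did not move together. Acadvl, for very long chains, had 630.3 at 6 h, 384, 347 and 269 in early and 298, 239.6 and 372 in late α-LA cells, 334 and 345 in TG cells, and 683, 693 and 704 in control cells. All treated arrays from 18 h on fell well short of the tight controls. The fall was 2.10-fold in early cells (-1.07 ± 0.16, limma adjusted p = 0.000418), 2.32-fold in late cells (-1.22 ± 0.16, adjusted p = 0.000128) and 2.04-fold in TG cells (-1.03 ± 0.17, adjusted p = 0.000363). Acadm, for medium chains, had 1559 at 6 h, 1235, 1092 and 849 in early and 1345, 1195 and 1434 in late α-LA cells, 1212 and 1356 in TG cells, and 2209, 1785 and 1929 in control cells. Its groups did not overlap with the controls either, and the 30 h array was the lowest of all. It fell by 0.91 ± 0.14 on the log2 scale in early cells (adjusted p = 0.000508), by 0.57 ± 0.14 in late cells (adjusted p = 0.00733) and by 0.62 ± 0.15 in TG cells (adjusted p = 0.00571), the last of these lost without the TG array named 18 h (adjusted p = 0.0711). Acadl, for long chains, was not called with α-LA (log2 changes of 0.07 and 0.22) and fell with TG (-0.57 ± 0.11, adjusted p = 0.00134). Acads, for short chains, was called in no comparison, with log2 changes of 0.18, 0.28 and -0.03 in early, late and TG cells. The flavoprotein genes that carry the electrons of these enzymes to the respiratory chain were not called with α-LA. Of Etfa, Etfb and Etfdh the last alone fell with TG (-0.40 ± 0.11, adjusted p = 0.0121), a call lost without control 3 or either TG array. Etfb lay near background, with 132 to 182 and 150 reached on 5 arrays, so that its lack of a call says little.

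Of the subunits of the trifunctional protein, which carries out the later steps of the cycle for long chains, Hadhb rose with both agents and Hadha was not called. Hadhb, the thiolase subunit of the trifunctional protein for long chains, had 5183 at 6 h, 6863, 9496 and 7319 in early and 9222, 8173 and 7793 in late α-LA cells, 11160.3 and 10918 in TG cells, and 6285, 5038 and 5297 in control cells. All treated arrays but that of 6 h lay above the controls, and the TG arrays were the highest. It rose 1.42-fold in early cells (0.50 ± 0.14, limma adjusted p = 0.0142), 1.52-fold in late cells (0.60 ± 0.14, adjusted p = 0.00445) and 2.00-fold in TG cells (1.001 ± 0.14, adjusted p = 0.000118), the early call being lost without control 2 or control 3 (adjusted p = 0.0541 to 0.062). Hadha, the other subunit of the same protein, had 522 at 6 h, 512, 722 and 606 in early and 760.0, 670.5 and 874 in late α-LA cells, 711 and 785 in TG cells, and 609, 607 and 633 in control cells. Late α-LA and TG arrays lay above the controls and the early ones overlapped them, with log2 changes of -0.02 ± 0.13, 0.31 ± 0.13 and 0.28 ± 0.14 in early, late and TG cells and no call (adjusted p = 0.931, 0.0912 and 0.15). Hadha was called higher with TG in 2 alternatives (adjusted p = 0.0277 to 0.0316) and late in 1 (adjusted p = 0.0479).

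The starts of Hadha and Hadhb lie 301 bases apart on opposite strands, running away from each other, so that the bases between them belong to both promoters. The window is shown because its genes encode partner subunits, while Hadhb passed the test and Hadha did so in some alternatives only. The difference between the genes was not itself tested. It held no DR1 match within the limits above.
Hadha and Hadhb, chr6:31907551-31907750, plus strand: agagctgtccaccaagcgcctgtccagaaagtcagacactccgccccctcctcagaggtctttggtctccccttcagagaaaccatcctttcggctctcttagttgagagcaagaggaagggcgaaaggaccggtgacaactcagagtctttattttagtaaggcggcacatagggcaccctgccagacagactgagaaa

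Hadh, the hydroxyacyl-CoA dehydrogenase for shorter chains, had 1114 at 6 h, 1132, 1035 and 769 in early and 1032, 915 and 1212 in late α-LA cells, 371 and 343 in TG cells, and 1380.2, 1381 and 1276 in control cells. The TG arrays were far below every other array, and the α-LA arrays were moderately below the controls. Its fall with TG, 3.77-fold (-1.92 ± 0.16, limma adjusted p = 1.52e-06), was the largest fitted change of any of the 37 genes in the comparisons with control cells. The early α-LA fall was 1.39-fold (-0.48 ± 0.15, adjusted p = 0.0261), and was lost without any 1 of the controls, without the 30 h array or with background removed (adjusted p = 0.0513 to 0.098). In late cells Hadh was not called (-0.36 ± 0.15, adjusted p = 0.0729), but 6 alternatives called it lower, the 18 to 72 h arrays as 1 group among them (adjusted p = 0.0116 to 0.0492). Echs1, the short-chain enoyl-CoA hydratase, fell in early α-LA cells as Hadh did but, unlike Hadh, was not called with TG. It had 2248 at 6 h, 1398, 1768 and 1168 in early and 1224, 1197 and 2018 in late α-LA cells, 2994 and 2847 in TG cells, and 3269.5, 2532 and 2697 in control cells. The α-LA arrays all lay below the controls and the TG arrays within them. Echs1 fell 1.98-fold in early cells (-0.98 ± 0.20, adjusted p = 0.00335) and 1.96-fold in late cells (-0.97 ± 0.20, adjusted p = 0.00295), and its log2 change with TG was 0.05 ± 0.22 (adjusted p = 0.878).

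Of the mitochondrial thiolase and the auxiliary enzymes for unsaturated chains, Acaa2 rose in late α-LA cells, Eci1 fell in early α-LA and TG cells, and Decr1 fell in early α-LA and TG cells. Acaa2, the mitochondrial thiolase, had 735, 858 and 524 in early and 1013, 856 and 1315 in late α-LA cells, 464 and 522 in TG cells, and 595, 587 and 601 in control cells. The late arrays were all above the controls and the early arrays fell on both sides. Acaa2 rose late (0.81 ± 0.18, limma adjusted p = 0.00418), a call lost with the arrays from 18 to 72 h as 1 group (adjusted p = 0.103), and was not called early (0.22 ± 0.18) or with TG (-0.27 ± 0.19). Eci1, an enoyl-CoA isomerase that moves double bonds into the position the cycle needs, had 2416 at 6 h, 2044, 1355 and 1390.1 in early and 2791, 2162 and 2875 in late α-LA cells, 1840.4 and 1748 in TG cells, and 2683, 2810.5 and 3208 in control cells. Early and TG arrays were below the controls and the late arrays overlapped them. It fell by 0.88 ± 0.16 in early cells (adjusted p = 0.00167) and by 0.69 ± 0.17 in TG cells (adjusted p = 0.00677), was not called late (-0.16 ± 0.16), and was 1.65-fold higher in late than in early cells (0.72 ± 0.16, adjusted p = 0.0149). The early call was lost with the arrays from 18 to 72 h as 1 group (adjusted p = 0.121), the TG call without the TG array named 24 h (adjusted p = 0.0584), and the late-to-early call without the 30 h or the 42 h array (adjusted p = 0.0541 to 0.0611). Decr1, the dienoyl-CoA reductase, had 2419 at 6 h, 2121, 1554 and 1219 in early and 1632, 1555 and 1961 in late α-LA cells, 1184 and 1246 in TG cells, and 2225, 2178 and 2253 in control cells. All α-LA arrays from 18 h on and the TG arrays lay below the controls, the 18 h array by little. It fell with TG (-0.87 ± 0.18, adjusted p = 0.00177), while its early α-LA call (-0.48 ± 0.17, adjusted p = 0.0474) was lost in 11 of the alternative settings, among them leaving out any 1 control, the 24 h, the 30 h, the 42 h or the 48 h array (adjusted p = 0.0502 to 0.181).

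Acot2, a mitochondrial thioesterase that frees fatty acids from CoA, showed the largest rise of the mitochondrial enzymes. Its signal was 149 at 6 h, 309, 353 and 397 in early and 473, 487 and 244 in late α-LA cells, 265 and 214 in TG cells, and 132, 126 and 119.9 in control cells. The controls were under 150 on every array and all treated arrays from 18 h on were well over it, with the 72 h array below the other late arrays. The rise was therefore at least 2.34-fold in early cells (limma adjusted p = 0.000353), at least 2.55-fold in late cells (adjusted p = 0.00015) and at least 1.59-fold in TG cells (adjusted p = 0.00748). The probe reached 150 on 8 arrays, the α-LA arrays from 18 h on and the TG arrays. It was thus tested only because of its higher groups. The TG call was lost without the TG array named 18 h (adjusted p = 0.0933). Acot1, its close cytosolic relative, had 109 to 161 on the 12 arrays and was not tested. Whether the probes tell these paralogs apart was not tested.

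Bdh1, which interconverts the ketone bodies acetoacetate and β-hydroxybutyrate, had 264 at 6 h, 167, 171 and 135 in early and 174, 181 and 145 in late α-LA cells, 248 and 246 in TG cells, and 288, 246 and 338 in control cells. Early and late arrays all lay below the controls, and the TG arrays were at their lower edge. It fell 1.84-fold in early cells (-0.88 ± 0.14, limma adjusted p = 0.000611) and 1.74-fold in late cells (-0.80 ± 0.14, adjusted p = 0.000888), and was not called with TG (-0.22 ± 0.15, adjusted p = 0.265). Of 6 further ketone body genes listed, 4 were tested. In early, late and TG cells alike 3 of these rose, Bdh2 and Aacs among them. Acat1 fell in each, most with TG (-1.23). Of all probes, 16.6% rose and 15.7% fell early, 19.1% and 17.7% late, and 19.2% and 18.7% with TG. The rise of Bdh2 was 1.03 on the log2 scale in early cells.

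**Figure D2:**
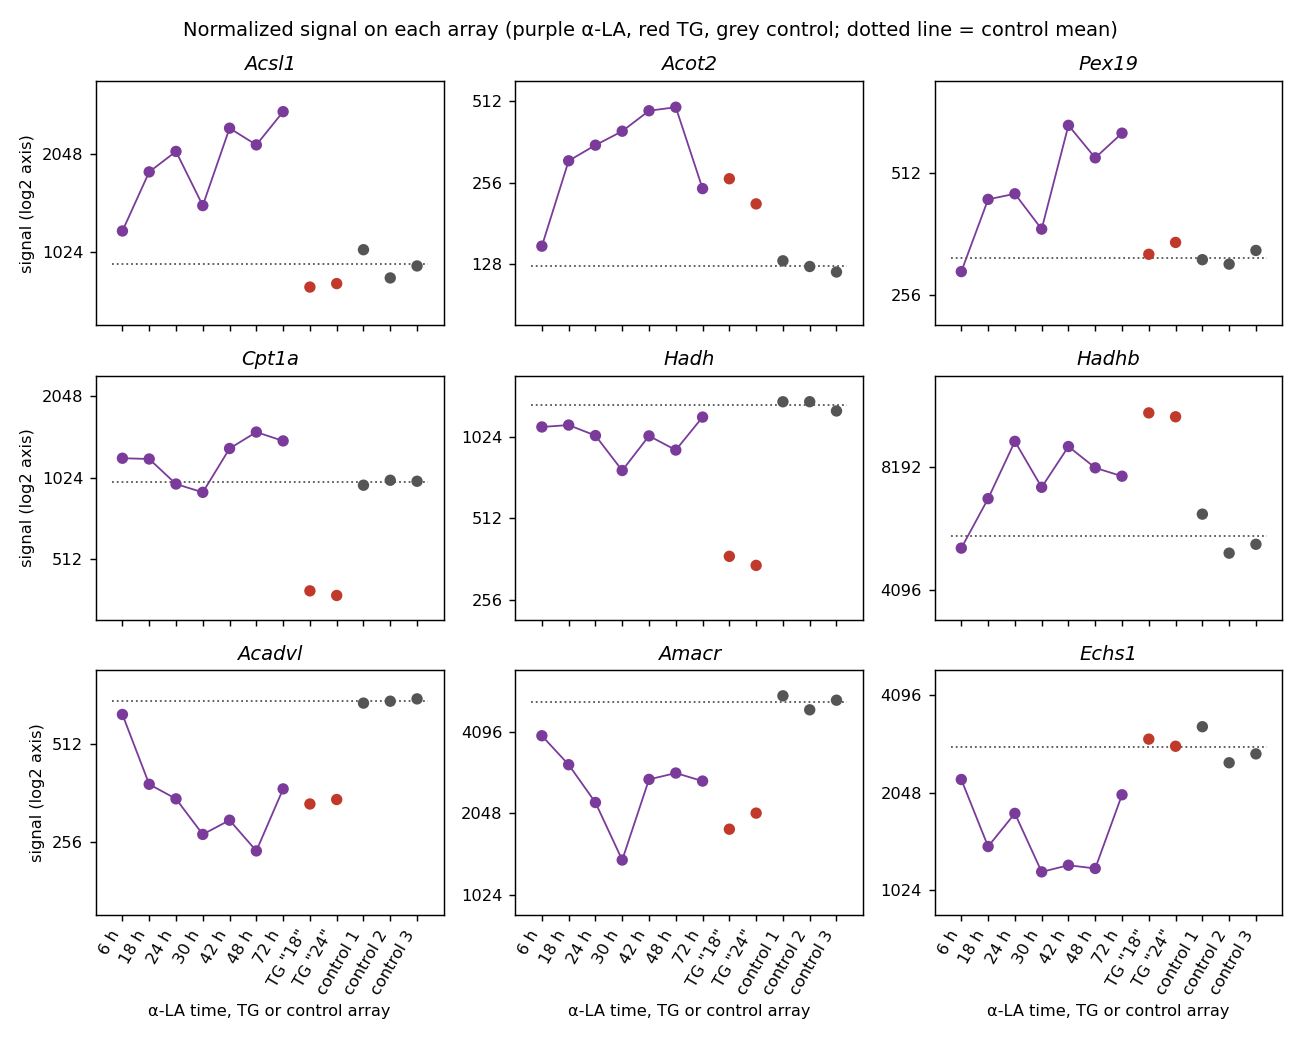
Normalized signal (log2 axis) of 9 genes on each of the 12 arrays, with α-LA arrays in purple joined in order of time from 6 to 72 h, TG arrays in red, control arrays in grey and the control mean as a dotted line. TG arrays lie far below all others for Cpt1a (391 and 376) and Hadh (371 and 343) and highest of all for Hadhb (11160.3 and 10918), while Acsl1 and Pex19 are above the controls on the α-LA arrays from 18 h on.

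Of the 7 peroxisomal enzymes tested, 3 fell and 0 rose in early α-LA cells, beside 15.7% and 16.6% of all probes. In late α-LA cells 2 fell and 1 rose, beside 17.7% and 19.1%, and in TG cells 3 fell and 0 rose, beside 18.7% and 19.2%. Phyh, which starts the α-oxidation of the branched phytanic acid, had 3977 at 6 h, 4115, 3100.2 and 2430.3 in early and 2683, 2057 and 3331 in late α-LA cells, 2459.8 and 2589 in TG cells, and 6383, 4976 and 5104 in control cells. All treated arrays were below the controls, that of 6 h included. It fell 1.74-fold in early cells (-0.80 ± 0.20, limma adjusted p = 0.011), 2.07-fold in late cells (-1.05 ± 0.20, adjusted p = 0.00178) and 2.16-fold in TG cells (-1.11 ± 0.22, adjusted p = 0.00118). Scp2, whose products are a thiolase for branched chains and a sterol carrier, had 308, 242 and 224 in early and 360.1, 338 and 431 in late α-LA cells, 263 and 255 in TG cells, and 445, 428 and 497 in control cells. Early and TG arrays were below the controls and the 72 h array reached them. Scp2 fell early (-0.83 ± 0.13, adjusted p = 0.000647) and with TG (-0.81 ± 0.14, adjusted p = 0.000531), was not called late (-0.28 ± 0.13), and was higher late than early (0.55 ± 0.13, adjusted p = 0.0198), a call lost without the 24, 30, 42 or 72 h array (adjusted p = 0.0516 to 0.0705). Crot, the octanoyltransferase that passes shortened chains to carnitine, fell in early (-0.49), late (-0.47) and TG cells (-0.76). Both of its α-LA calls were lost without control 1 or control 3 and in some other settings (adjusted p = 0.0773 to 0.0874 for early cells and 0.0504 to 0.09 for late cells).

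Cat, the catalase of the peroxisome, was the peroxisomal enzyme called higher. It had 1513 at 6 h, 1089.9, 1512 and 1036 in early and 1387, 1593 and 1816 in late α-LA cells, 881 and 958 in TG cells, and 1169, 998 and 969.5 in control cells. The 3 late arrays and those at 6 and 24 h lay above the controls, and the TG arrays just below them. Cat rose 1.52-fold in late cells (0.61 ± 0.15, limma adjusted p = 0.00811), was not called in early cells (0.20 ± 0.15) or TG cells (-0.18 ± 0.16), and the late rise missed the threshold with the arrays from 18 to 72 h as 1 group (adjusted p = 0.0986). Acaa1a, the peroxisomal thiolase, had 2581 at 6 h, 2604, 2783 and 1829 in early and 2599.7, 2332 and 3103 in late α-LA cells, 2095 and 2294 in TG cells, and 2355, 2967 and 2734 in control cells. The α-LA arrays overlapped the controls and both TG arrays were below them, with log2 changes of -0.18 ± 0.16, -0.01 ± 0.16 and -0.29 ± 0.17 and no call. Hsd17b4, the D-bifunctional protein, was not called (0.10, 0.35 and -0.23), although its late arrays (4425, 4921 and 5475) lay above the controls (4378, 3622 and 3626) and 5 alternatives called it higher late (adjusted p = 0.0074 to 0.0486). Not called either was the reductase Decr2 (-0.36, -0.33 and -0.24).

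Of the enzymes known in both organelles, Amacr, a racemase that prepares branched chains and bile acid intermediates for β-oxidation, fell most. It had 3954 at 6 h, 3090.2, 2240.3 and 1373 in early and 2727, 2879 and 2688 in late α-LA cells, 1785 and 2047 in TG cells, and 5553, 4929.6 and 5349 in control cells. Every treated array lay below the controls, and the 30 h array was the lowest. The fall was 2.49-fold in early cells (-1.32 ± 0.22, limma adjusted p = 0.000794), 1.91-fold in late cells (-0.93 ± 0.22, adjusted p = 0.00565) and 2.76-fold in TG cells (-1.46 ± 0.23, adjusted p = 0.000268). Eci2, an isomerase, fell with TG alone (-0.56 ± 0.17, adjusted p = 0.0193), a call lost without control 3 or either TG array (adjusted p = 0.074 to 0.115). The brighter probe of Crat, carnitine acetyltransferase, fell in late α-LA cells (-0.29 ± 0.09, adjusted p = 0.0249), a small change that was lost without control 2, control 3, the 42 h or the 48 h array (adjusted p = 0.0665 to 0.102).

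Set side by side, the 18 mitochondrial enzymes had a median log2 change of -0.061 in early cells, 0.10 in late cells and -0.34 in TG cells, and the 7 peroxisomal enzymes one of -0.36, -0.28 and -0.29. Among the mitochondrial enzymes 8 fell and 2 rose early, 5 fell and 4 rose late, and 9 fell and 2 rose with TG, beside the shares of all probes given above, 15.7% and 16.6% early, 17.7% and 19.1% late, and 18.7% and 19.2% with TG. The mitochondrial median with α-LA took the other sign under some choices, 0.03 for the 18 to 72 h arrays as 1 group and -0.0052 for late cells with the both-organelle enzymes counted in. With these enzymes counted in, the early median kept its sign and was -0.24. Single arrays differed within a group. The peroxisomal median was -0.62 at 30 h and 0.05 at 72 h of α-LA, with -0.43 at 48 h, while the control arrays themselves gave 0.17, -0.09 and 0.0073. The mitochondrial median ran from -0.16 at 30 h to 0.16 at 72 h, and was 0.05, -0.04 and -0.0040 on the control arrays. With TG all 7 peroxisomal enzymes had both arrays below all controls, where 64% of all probes had no overlap between TG and control arrays in either direction. No test was made between the lists, since the genes were chosen with results of these data known.

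**Figure D3:**
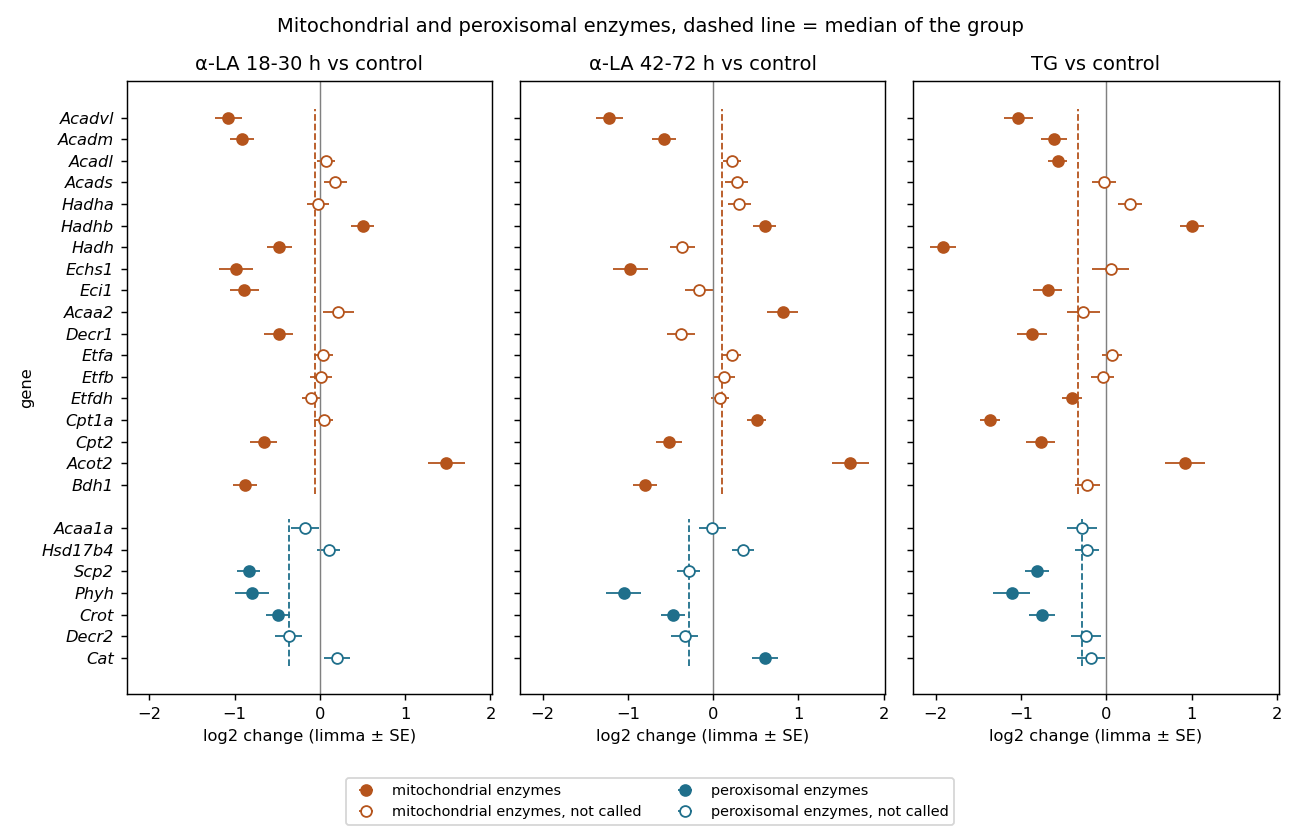
Limma log2 change with its SE (across) for each mitochondrial enzyme (orange) and peroxisomal enzyme (blue) in early α-LA, late α-LA and TG cells against control cells, with filled points for adjusted p under 0.05 and a dashed line at each group's median. The peroxisomal medians, -0.36, -0.28 and -0.29, lie left of 0 in all panels, and the mitochondrial genes spread from -1.92 (Hadh with TG) to a fitted 1.61 (Acot2 in late cells). The Acot2 controls were all under 150, so that its rise is given in the text as a bound.

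**Figure D4:**
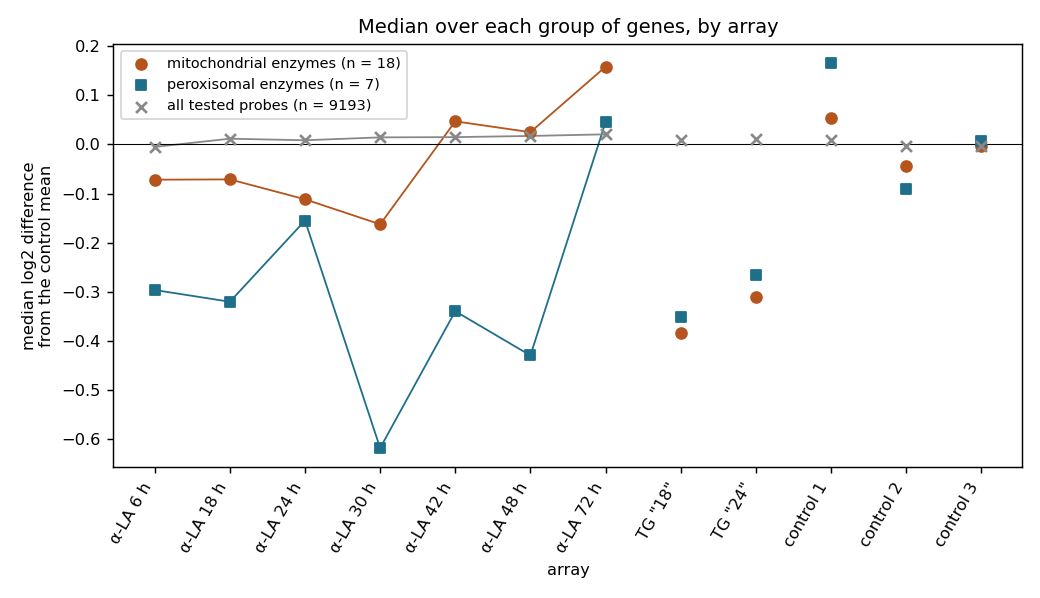
Median log2 difference from the control mean (vertical axis) over the 18 mitochondrial enzymes (orange circles), the 7 peroxisomal enzymes (blue squares) and all 9193 tested probes (grey crosses) on each array, α-LA arrays being joined in order of time. The peroxisomal median is lowest at 30 h (-0.62) and near 0 at 72 h (0.05), and both medians are negative on the TG arrays.

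For 3 pairs of a mitochondrial enzyme and its peroxisomal or shared counterpart both members were measured. Acaa2 changed by 0.22, 0.81 and -0.27 in early, late and TG cells, and its counterpart Acaa1a by -0.18, -0.01 and -0.29. Decr1 changed by -0.48, -0.38 and -0.87, and Decr2 by -0.36, -0.33 and -0.24. Eci1 changed by -0.88, -0.16 and -0.69, and Eci2 by -0.31, -0.01 and -0.56. The signs within each pair were the same but for Acaa2 and Acaa1a with α-LA, and each change that was called belonged to the mitochondrial member, save that of Eci2 with TG. Differences within a pair were not tested.

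Of the 4 tested members that act in peroxisome assembly, Pex19 was called with α-LA, while some of the other PEX genes given below also rose late. Pex19, a receptor that carries membrane proteins to the peroxisome, had 292 at 6 h, 440.1, 454 and 372 in early and 669.8, 557 and 641 in late α-LA cells, 322 and 345 in TG cells, and 313, 305 and 329 in control cells. The early arrays were all above the controls, the late arrays all above the early ones, and the TG arrays overlapped the controls. Pex19 rose 1.33-fold early (0.41 ± 0.11, limma adjusted p = 0.0118) and 1.97-fold late (0.98 ± 0.11, adjusted p = 3.29e-05), and was 1.48-fold higher late than early (0.56 ± 0.11, adjusted p = 0.00708). It was the only gene of the 6 called between late and early cells that kept its call in every alternative. With TG its log2 change was 0.08 ± 0.12 (adjusted p = 0.637). Pex7, an import receptor for matrix proteins, fell with TG (-0.54 ± 0.14, adjusted p = 0.00741), a call lost without the TG array named 18 h (adjusted p = 0.065). The import receptor Pex5 and the docking protein Pex14 lay near background on several arrays and were not called. Pex11a, which takes part in peroxisome division, had 115 to 144 and was not tested. Of 10 further PEX genes tested, 0 were called early, 4 rose late and 2 rose with TG, with none lower, beside 19.1% and 19.2% of all probes higher late and with TG.

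The acyl-CoA synthetases, which activate fatty acids before any other step, split by gene and by agent. Acsl1, a main isoform of the liver, had 1189.6 at 6 h, 1808, 2091 and 1424 in early and 2466, 2190.0 and 2772 in late α-LA cells, 799 and 819 in TG cells, and 1042, 853 and 928 in control cells. Every α-LA array was above the controls, that of 6 h by the least, and both TG arrays were just below them. The rise was 1.87-fold in early cells (0.90 ± 0.15, limma adjusted p = 0.000647) and 2.63-fold in late cells (1.39 ± 0.15, adjusted p = 2.15e-05), and no call was made with TG (-0.21 ± 0.15, adjusted p = 0.31). Acsl3, an isoform of the ER and lipid droplets, had 1345 at 6 h, 936, 939 and 942 in early and 1089, 1108 and 1058 in late α-LA cells, 634 and 631 in TG cells, and 1382, 1096 and 1227 in control cells. The early arrays lay close together and below the controls, as did the TG arrays, and neither overlapped the controls, whereas the late arrays did. Acsl3 fell 1.31-fold early (-0.39 ± 0.10, adjusted p = 0.0102) and 1.94-fold with TG (-0.96 ± 0.10, adjusted p = 1.27e-05), and was not called late (-0.18 ± 0.10). The early call was lost with the arrays from 18 to 72 h as 1 group (adjusted p = 0.0522). Acsl4, which prefers arachidonic acid, rose late (0.53 ± 0.17, adjusted p = 0.0301), a call lost without control 2, control 3, the 42 h or the 72 h array and in 2 other settings (adjusted p = 0.0514 to 0.119). With TG its arrays (1167 and 1273) lay below the controls (1912, 1486 and 1765) without a call (-0.49 ± 0.18, adjusted p = 0.0518), and 8 alternatives called it lower (adjusted p = 0.00141 to 0.0474). Acsl5 was not called.

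Fabp1, the fatty acid binding protein of the hepatocyte cytosol, fell with both agents. It had 228 at 6 h, 171, 139.8 and 145 in early and 145, 132.7 and 144 in late α-LA cells, 130.3 and 140.3 in TG cells, and 196, 275 and 285 in control cells. All late α-LA and TG arrays were under 150, so that control cells were at least 1.66-fold above each, and control 1 was the lowest of the controls. In early cells the fall was 1.64-fold (-0.72 ± 0.14, limma adjusted p = 0.00246). The probe reached 150 on 5 arrays, the controls and those at 6 and 18 h, so that it was tested only because of its higher groups. Ppara, the receptor itself, had 126 at 6 h, 139, 128 and 135 in early and 132.7, 126 and 146 in late α-LA cells, 132 and 142 in TG cells, and 129, 135 and 127 in control cells. Pdk4, a kinase that shuts pyruvate dehydrogenase in fasting, had 123 at 6 h, 131, 118 and 126 in early and 141, 143 and 131 in late α-LA cells, 127 and 138 in TG cells, and 123, 119.9 and 124 in control cells. No Ppara or Pdk4 signal reached 150 on any array, and their probes do not show whether these genes changed.

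The agents were also compared directly, a comparison chosen after their values had been seen. Treatment, solvent and dosing schedule differ together in it, and the harvest hours are not settled. The study dissolved α-LA in sodium hydroxide, neutralized in medium, and TG in DMSO, while control cells were untreated. Of the 37 genes, 3 were higher and 7 lower in TG than in early α-LA cells (limma, adjusted p under 0.05), where 13.6% of all probes were higher and 13.9% lower. Cpt1a was 2.65-fold lower in TG cells (-1.41 ± 0.12, adjusted p = 6.29e-06) and Hadh 2.71-fold lower (-1.44 ± 0.16, adjusted p = 3.86e-05). Acsl1 was 2.17-fold lower (-1.12 ± 0.15, adjusted p = 0.000209), and Acsl3, Acsl4, Acadl and Pex19 were lower by 0.57, 0.72, 0.64 and 0.33 on the log2 scale. Echs1 was 2.05-fold higher in TG cells (1.04 ± 0.22, adjusted p = 0.00341), Bdh1 1.58-fold higher (0.66 ± 0.15, adjusted p = 0.00535) and Hadhb 1.41-fold higher (0.50 ± 0.14, adjusted p = 0.0204). The calls of Cpt1a, Hadh, Echs1, Acadl, Acsl1 and Acsl3 held in every alternative. Those of Pex19, Hadhb, Acsl4 and Bdh1 did not, each being lost without the TG array named 18 h (adjusted p up to 0.249, 0.121, 0.0995 and 0.05 over the settings that lost them). Without the 30 h array, 13 of the genes were lower in TG cells in place of 7, while over all probes 1100 were lower in place of 1278.

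Within the α-LA course, 31 of the 37 genes had a positive late-to-early change, with a median of 0.15, where the median over all probes was -0.0020. The 6 genes called were Eci1, Acaa2, Cpt1a, Scp2, Pex19 and Acsl1. Acaa2 (0.60 ± 0.18, limma adjusted p = 0.0499) and Acsl1 (0.49 ± 0.15, adjusted p = 0.0444) were close to the threshold and were lost in 11 and 10 of the alternatives. The count of genes that were higher late fell to 1 without the 30 h array and to 2 without the 42 h array. Over all 9193 probes the count higher late fell too, from 591 to 377 and to 314. At 30 h 14 of the 18 mitochondrial and 7 of the 7 peroxisomal enzymes lay below the control mean, against 11 and 4 at 24 h. Of all 9193 probes, 4448 lay below it at 30 h and 4519 at 24 h.

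Further genes of the same pathways numbered 96 by symbol, of which 66 were tested. Early, 13 rose and 15 fell, late, 19 rose and 11 fell, and with TG 17 rose and 19 fell, beside 16.6% and 15.7%, 19.1% and 17.7%, and 19.2% and 18.7% of all probes. The largest falls among them were in peroxisomal genes. Hao1, the glycolate oxidase, fell 2.82-fold, 2.73-fold and 2.74-fold in early, late and TG cells, and Pxmp2, a channel of the peroxisomal membrane, 3.42-fold, 3.27-fold and 2.78-fold. Hacl1, which follows Phyh in α-oxidation, fell by 1.07 on the log2 scale early. Of the 14 tested PPAR regulators and other PPAR targets, 5 rose and 3 fell early, and 4 rose and 3 fell late. With TG 3 rose and 3 fell, beside the same shares of all probes. Their median log2 changes were 0.07, 0.03 and -0.15. Those named were called with a log2 change of at least 1. Plin2, a coat protein of lipid droplets, rose by 1.82 early and 1.56 late, with 0.08 and no call in TG cells. Creb3l3, a transcription factor of the fasting liver, rose by 2.07 and 2.33, with -0.38 and no call in TG cells. Acad11 (1.18 late, 1.11 with TG) and Ivd (-1.04 early, -1.17 late) also changed by more than 1 on this scale. Both were listed here with the further mitochondrial enzymes, and where their products lie was not tested. Changes of that size were also seen for Gstk1 (1.73) and Nrip1 (1.25) with TG and Idh1 between late and early cells (1.03).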

How the data were processed

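RNA of FaO cells was hybridised to 12 Illumina RatRef-12 arrays. The authors read the scans with BeadStudio (version 3.0.19.0 in the submitters' processing notes) and quantile-normalized them in BRB-ArrayTools. The deposited intensity values of 22523 probes are linear and contain background, so that fold changes of dim probes are understated. A second deposited table, of values before normalization, has 24 value columns whose names match no sample and was not used. Probes were named from the platform annotation (13793) or the gene symbols of a table of the study (1682), and 7048 stayed unnamed. A gene with more than 1 probe was represented by the tested probe with the highest mean signal.

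The log2 of each intensity was taken. Probes at 150 or more on at least 3 arrays, 9193 in all, entered linear models (limma 3.58.1, with its functions lmFit and eBayes, under R 4.3.3), and p-values were adjusted over all of them by Benjamini and Hochberg, with 0.05 as the threshold. Control, early and late α-LA arrays were fitted together, and a fit with the TG arrays added gave the TG comparisons. The 6 h array entered no test. Where every array of a group was under 150, a bound replaces the fold change, for which the group's signals were raised to 150. Genes with full values are the 16 with the largest called log2 change of at least 0.8, and 9 chosen by name. Scp2 and Acaa2 passed that size but ranked below the 16, and their values were added. The script was tested on simulated data. Members and lists were chosen with earlier results of these data known. The alternatives tried were other filters, background removal, cyclic loess, other variance settings, array weights, other groups in the fit, other assignments of the both-organelle enzymes, and leaving out each array in turn. The number of arrays limits the precision. Promoter sequences are RefSeq's (GRCr8), scanned with Python.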

Additional observations from a re-analysis of the deposited data

Results flagged for a closer look

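The following differences between treated groups passed a test of the difference itself (limma, adjusted p under 0.05). Late minus early α-LA, the log2 differences were 0.72 for Eci1 (adjusted p = 0.0149), 0.60 for Acaa2 (adjusted p = 0.0499), 0.47 for Cpt1a (adjusted p = 0.0195), 0.55 for Scp2 (adjusted p = 0.0198), 0.56 for Pex19 (adjusted p = 0.00708) and 0.49 for Acsl1 (adjusted p = 0.0444). These groups came from a clustering of the same arrays, and of the 6 calls that of Pex19 alone held in every alternative.

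TG minus early α-LA, the differences were -0.64 for Acadl (adjusted p = 0.00108), 0.50 for Hadhb (adjusted p = 0.0204), -1.44 for Hadh (adjusted p = 3.86e-05), 1.04 for Echs1 (adjusted p = 0.00341), -1.41 for Cpt1a (adjusted p = 6.29e-06), 0.66 for Bdh1 (adjusted p = 0.00535), -0.33 for Pex19 (adjusted p = 0.0461), -1.12 for Acsl1 (adjusted p = 0.000209), -0.57 for Acsl3 (adjusted p = 0.00139) and -0.72 for Acsl4 (adjusted p = 0.0109). This comparison was added after the values had been seen, and the harvest hours of the TG arrays are given differently in the titles and in the protocol. Against control cells Cpt1a rose in late α-LA cells and fell in TG cells, and Hadh fell 3.77-fold in TG cells and 1.39-fold in early α-LA cells. Echs1 fell in α-LA cells and was not called in TG cells. No group held enough arrays for an outlier test.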

How the results depend on the processing

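No called change reversed its direction. Calls held in every alternative for 12 of 18 genes in early α-LA cells, 11 of 18 in late α-LA cells, 13 of 19 in TG cells, 1 of 6 between late and early cells, and 6 of 10 between TG and early cells. In the same order, 3, 9, 7, 6 and 10 genes not called gained a call in some alternative. Counts of genes that passed moved as follows. With the 18 to 72 h arrays as 1 group, 4 rose in place of 8 late, and 1422 in place of 1753 of all probes. Between late and early, 3 in place of 6 were higher with background removed or with only the groups compared in the fit. Over all probes 402 and 373 were then higher in place of 591. In the same comparison 1 (Pex5) in place of 0 was lower with no filter, background removed, a variance trend with robust prior, or array weights. Array weights gave 4 in place of 2 higher with TG, and 11 in place of 7 lower in TG than in early cells. Over all probes they gave 2547 in place of 1763 and 1623 in place of 1278. Leaving out 1 array also moved the counts over all probes, in early cells from 1116 to 1637 higher and from 1124 to 1536 lower.

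Leaving out 1 array at a time gave 3 to 4 higher and 11 to 16 lower early, 7 to 9 and 7 to 13 late, 1 to 7 and 0 to 0 between late and early, 1 to 2 and 13 to 18 with TG, and 1 to 4 and 5 to 13 between TG and early cells. The mitochondrial median then ran from -0.127 to -0.0288 early (-0.127 without the 24 h array, -0.1195 without control 2), 0.037 (without control 2) to 0.1563 late, 0.1267 to 0.2096 (without the 48 h array) between late and early, -0.4236 (without control 2) to -0.3055 with TG, and -0.1346 (without the 24 h array) to -0.0783 between TG and early cells. The peroxisomal median ran from -0.4698 to -0.2379, -0.3851 to -0.2107, -0.0176 (without the 30 h array) to 0.2853, -0.3776 to -0.2655, and -0.3369 to -0.1213 in the same order.

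Other settings moved the mitochondrial median to -0.1238 (array weights), 0.03 (18 to 72 h as 1 group) and -0.2448 (both-organelle enzymes counted in) early, to 0.1666 (background removed), 0.03 and -0.0052 late, to -0.4859 (a signal of 300), -0.4497 (background removed), -0.4003 (array weights) and -0.4024 (both-organelle enzymes) with TG, and to -0.1621 (300) and -0.1797 (background removed) between TG and early cells. The peroxisomal median with TG was -0.4238 with the both-organelle enzymes counted in. The cause of these shifts was not tested.

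Groups held 3 arrays, 2 for TG, and single times 1, which limits the precision, and genes under 150 have no measured change. Probe specificity, the harvest time of the controls and the hours of TG are not settled. No paired analysis was possible because the treated arrays carry no replicate numbers.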
